A study of Mus musculus with 8 samples.

Results

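The transcription factor AP-1 was followed through the transcripts of 9 genes: the FOS family (Fos, Fosb, Fosl1 and Fosl2), the JUN family (Jun, Junb and Jund), and the related factors Batf3 and Atf3. They are 9 of the 54532 genes in the deposited count table. Each was matched by its symbol to a single row, and all 9 were among the 16745 genes tested. The set was chosen by gene name with earlier results of the same comparison in view. Levels, fold changes and calls of the 9 genes between the groups are therefore descriptions that support nothing further.

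AP-1 is a dimer of basic leucine zipper (bZIP) proteins. FOS proteins do not form stable homodimers and bind DNA with a JUN partner, whereas JUN proteins can also pair with each other. In neurons, Fos, Fosb and Junb are immediate early genes: activity starts their transcription through factors that are already present, and calcium and cyclic AMP signals reach their promoters through CREB and the serum response factor. Jund is known for high basal expression in brain, and Fosb gives rise by splicing to deltaFosB, a truncated protein known to persist in neurons after repeated exposure to drugs.

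RNA of the medial prefrontal cortex (mPFC) came from adult male C57BL/6 mice in a study of conditioned place preference (CPP) for methamphetamine (METH), in which an animal learns to prefer a compartment paired with the drug. The retrieval group comprised 4 libraries and the non-retrieval group 4 libraries, each from a pool of 2 to 3 mice collected 1 h after the CPP test. How the non-retrieval mice were handled is not given in the labels. P-values set the difference between groups against the variation between these pools, not between single mice.

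Total counts ran from 25013503 to 29547978 per library. Slc17a7, the vesicular glutamate transporter of cortical excitatory neurons, was measured at 1845 to 2197 CPM (counts scaled to library size), and Ttr, which defines choroid plexus, at 0 to 0.211 CPM. Retrieval replicate 2 had the highest summed level of 10 striatal markers (355 CPM, against 193 to 248 CPM elsewhere). The summed level of 12 oligodendrocyte markers did not overlap between groups, at 3444 to 4062 CPM in non-retrieval and 4176 to 6051 CPM in retrieval, and 7 of the 12 were higher in retrieval (edgeR quasi-likelihood test, adjusted p under 0.05). Of all tested genes 3.67% were called higher, and 6.59% had every retrieval library above every non-retrieval library. None of the markers was at 0 in every library.

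Promoter windows from RefSeq (build GRCm38.p6, 250 bases before to 50 bases after the start) were found for 8 of the 9 genes, Fosl1 being the exception. They are shown here for the 5 genes that were called higher in retrieval. Which signals act on these promoters was not tested. Capitals mark matches to the motifs described below. The windows of Fos (chr12:85473640-85473939, plus strand), Fosb (chr7:19309996-19310295, minus strand), Fosl2 (chr5:32136222-32136521, plus strand), Jun (chr4:95052173-95052472, minus strand) and Junb (chr8:84978699-84978998, minus strand) read as follows, 5′ to 3′ on the strand of the gene.
Fos: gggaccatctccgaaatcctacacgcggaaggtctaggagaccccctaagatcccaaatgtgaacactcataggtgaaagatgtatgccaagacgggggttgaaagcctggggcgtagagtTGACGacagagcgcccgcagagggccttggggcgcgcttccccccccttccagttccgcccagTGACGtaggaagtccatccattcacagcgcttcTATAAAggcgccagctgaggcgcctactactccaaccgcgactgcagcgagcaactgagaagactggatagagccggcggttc
Fosb: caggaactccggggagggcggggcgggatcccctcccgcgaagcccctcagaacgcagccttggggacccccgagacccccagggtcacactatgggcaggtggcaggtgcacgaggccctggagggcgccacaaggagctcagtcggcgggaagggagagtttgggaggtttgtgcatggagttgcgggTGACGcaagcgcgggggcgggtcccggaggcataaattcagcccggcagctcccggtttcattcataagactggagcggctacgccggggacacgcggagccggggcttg
Fosl2: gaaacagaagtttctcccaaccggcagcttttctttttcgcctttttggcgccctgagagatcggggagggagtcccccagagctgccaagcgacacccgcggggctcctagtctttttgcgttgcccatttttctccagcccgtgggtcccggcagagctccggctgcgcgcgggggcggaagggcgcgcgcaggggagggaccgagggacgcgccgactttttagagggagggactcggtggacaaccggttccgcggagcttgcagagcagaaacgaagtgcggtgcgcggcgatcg
Jun: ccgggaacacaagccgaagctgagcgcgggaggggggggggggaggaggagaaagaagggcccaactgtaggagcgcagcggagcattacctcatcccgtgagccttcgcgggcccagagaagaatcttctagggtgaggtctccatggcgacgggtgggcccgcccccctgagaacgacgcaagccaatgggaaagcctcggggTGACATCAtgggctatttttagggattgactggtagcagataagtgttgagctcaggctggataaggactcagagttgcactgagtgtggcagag
Junb: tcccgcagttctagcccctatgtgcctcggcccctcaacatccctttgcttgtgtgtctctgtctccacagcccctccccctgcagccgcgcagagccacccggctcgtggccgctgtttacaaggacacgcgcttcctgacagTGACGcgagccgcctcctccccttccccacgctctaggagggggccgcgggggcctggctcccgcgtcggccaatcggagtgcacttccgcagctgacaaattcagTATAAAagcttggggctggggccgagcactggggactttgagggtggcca

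TGACG, the core of the cyclic AMP response element to which CREB binds, was searched on both strands. It was found in 4 of the 8 windows, those of Fos, Fosb, Junb and Atf3, against 20.8% of all 32851 promoter windows of this length. Fos held it at -129 to -125 and at -66 to -62 from the start site, Fosb at -60 to -56, Junb at -106 to -102 and Atf3, on the opposite strand, at -7 to -3. The full palindrome TGACGTCA, which contains TGACG, was in none of the 8 windows and in 1.79% of all windows. Jun held TGACATCA, a match to TGACNTCA (which contains the palindrome), at -45 to -38. That pattern was in 1 of the 8 windows and in 8.83% of all windows.

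TGANTCA, with any base at N, was in none of the 8 windows and in 7.81% of all windows. It is wider than the classical binding site of AP-1 itself, in which N is C or G. The CArG box, the core of the serum response element, was likewise in none of the 8 and in 1.63% of all windows. The serum response element of Fos is known to lie further upstream than these windows reach. TATAAA was found in Fos at -33 to -28 and in Junb at 1 to 6, and in 13.6% of all windows. The RefSeq start of Junb lies 30 bases upstream of the start in the deposited table, so the Junb match at 1 to 6 precedes the latter. The 2 starts differ by 567 bases for Batf3, 671 for Fosl2, 1210 for Jund and 34706 for Atf3. Positions, that of the Atf3 match included, hold only for the RefSeq starts. The windows of Fosl2, Jund and Batf3 held no match to any of these motifs.

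**Figure D1:**
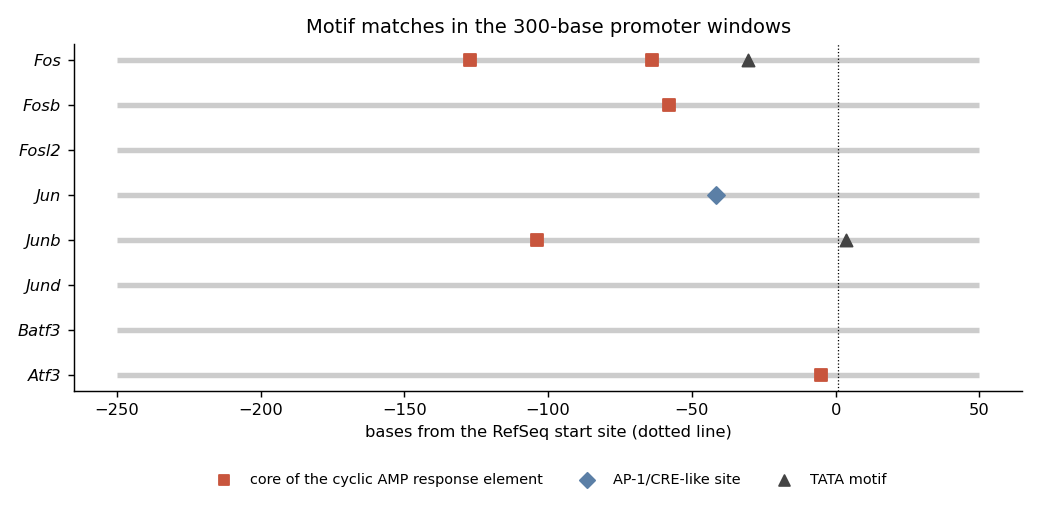
Positions of motif matches (symbols) in the promoter windows of 8 genes (rows), in bases from the RefSeq start site. Fos holds the core of the cyclic AMP response element at 2 positions, Fosb, Junb and Atf3 at 1 each, and Fosl2, Jund and Batf3 hold no match.

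Of the 9 genes, 5 were called higher in retrieval (Fos, Fosb, Fosl2, Junb and Jun) and 4 were not called. Among all tested genes 3.67% were called higher and 0.902% lower. None of the 9 was called lower by edgeR, DESeq2 or limma-voom, and at an unadjusted p under 0.05 in edgeR 5 were higher and 1, Batf3, was lower. At that unadjusted level 11.2% of all tested genes were higher and 7.27% lower. The retrieval libraries lay above the non-retrieval libraries for 6 of the 9 genes, below them for 1 and overlapped for 2, while 6.59% of tested genes lay entirely above and 4.53% entirely below. The median log2 fold change was 0.65 over the 9 genes and -0.01 over all tested genes. These counts use the comparison with which the genes were chosen and are given as description.

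Fos (ENSMUSG00000021250, chromosome 12, 85473890 to 85477273 in GRCm38) encodes the founding FOS subunit and is widely used as a marker of recently active neurons. It was measured at 11.7, 13.1, 8.66 and 19.1 CPM in non-retrieval replicates 1 to 4 and at 61.8, 55.0, 61.0 and 65.4 CPM in retrieval replicates 1 to 4. Every retrieval library exceeded every non-retrieval library, and the lowest retrieval value was 2.89 times the highest non-retrieval value. The mean rose 4.62-fold (log2 fold change 2.21, SE 0.16). The non-retrieval libraries varied more than the retrieval libraries, with a coefficient of variation of 33.3% against 7.04%.

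Fosb (ENSMUSG00000003545, chromosome 7, 19302696 to 19310051) was the tightest of the FOS family in non-retrieval, at 12.7, 12.6, 12.1 and 14.7 CPM. In retrieval it stood at 48.2, 46.3, 42.4 and 54.5 CPM. The lowest retrieval value was 2.88 times the highest non-retrieval value. The fold change was 3.67 (log2 fold change 1.88, SE 0.09). Counts were made per gene, so full-length FosB and deltaFosB transcripts were not separated here.

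Fosl2 (ENSMUSG00000029135, chromosome 5, 32135801 to 32157842) encodes FRA-2, a FOS subunit that lacks the strong transactivation domain of Fos. Its non-retrieval values were 26.3, 34.0, 22.1 and 25.1 CPM, and its retrieval values were 84.1, 81.8, 85.1 and 99.2 CPM. The groups were again apart, by 2.41 times between the nearest libraries. The fold change was 3.26 (log2 fold change 1.71, SE 0.11). Replicate 2 was the highest of the non-retrieval libraries for Fosl2, whereas replicate 4 was the highest for Fos and Fosb.

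Fosl1 (ENSMUSG00000024912, chromosome 19, 5447703 to 5455945), which encodes FRA-1, differed from the other FOS genes. It was measured at 6.66, 5.79, 8.77 and 7.27 CPM in non-retrieval and at 7.44, 7.06, 8.27 and 6.27 CPM in retrieval. The groups overlapped almost completely. The log2 fold change was 0.02 (SE 0.13), and its sign changed with the scaling or the libraries used. Fosl1 rested on 144 to 246 counts per library.

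Junb (ENSMUSG00000052837, chromosome 8, 84974484 to 84978718) encodes a JUN subunit that is a weaker activator than Jun and is itself an immediate early gene. Non-retrieval values were 61.0, 71.8, 51.8 and 89.4 CPM, and retrieval values were 159, 159, 169 and 163 CPM. The retrieval libraries were close to each other, with a coefficient of variation of 2.83% against 23.6% in non-retrieval. The fold change was 2.37 (log2 fold change 1.24, SE 0.12). Junb overlaps Prdx2, a peroxiredoxin gene on the opposite strand, by 351 bases. Reads from that stretch cannot be told apart without strand information, and Prdx2 itself stood at 156 to 179 CPM in the 8 libraries.

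Jun (ENSMUSG00000052684, chromosome 4, 95049034 to 95052222) encodes c-Jun, the main target of the JNK kinases. It stood at 44.2, 59.9, 49.1 and 55.8 CPM in non-retrieval and at 63.3, 63.7, 70.6 and 63.1 CPM in retrieval. The groups were separate by a narrow margin, the nearest libraries differing by 1.05 times. The fold change was 1.25 (log2 fold change 0.32, SE 0.08). With 1 library left out, the log2 fold change stayed between 0.25 and 0.39, but the call ended when non-retrieval replicate 1, 3 or 4, or replicate 2, 3 or 4 of retrieval, was the one omitted. An antisense gene, Junos, overlaps Jun by 689 bases and was measured at 0.684 to 1.38 CPM.

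Jund (ENSMUSG00000071076, chromosome 8, 70698949 to 70700616) was measured at 57.6, 75.1, 84.2 and 72.9 CPM in non-retrieval and at 72.6, 68.3, 68.4 and 76.2 CPM in retrieval. All retrieval values lay inside the range of the non-retrieval values. The log2 fold change was -0.02 (SE 0.09), with either sign when single libraries were left out. Jund and Junb lie on the same chromosome, 14273868 bases apart.

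Batf3 and Atf3 were the rarest of the 9 transcripts. Batf3 (ENSMUSG00000026630, chromosome 1, 191097847 to 191108945), a factor that pairs with JUN proteins and is known for its role in dendritic cells, had 24, 26, 47 and 29 counts in non-retrieval and 22, 21, 14 and 17 counts in retrieval. In CPM these were 0.845, 1.05, 1.68 and 0.976 against 0.741, 0.745, 0.536 and 0.616, so that every retrieval library lay below every non-retrieval library. The log2 fold change was -0.78 (SE 0.29), and the gene was not called.

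Atf3 (ENSMUSG00000026628, chromosome 1, 191170296 to 191218039), a stress-induced factor that often acts as a repressor, lies 61351 bases from Batf3. It had 8, 15, 15 and 13 counts in non-retrieval and 18, 21, 16 and 26 counts in retrieval. In CPM these were 0.282, 0.603, 0.535 and 0.437 against 0.606, 0.745, 0.613 and 0.942. The nearest libraries of the groups were almost equal, at 0.603 and 0.606 CPM. The log2 fold change was 0.65 (SE 0.32), and the gene was not called.

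**Figure D2:**
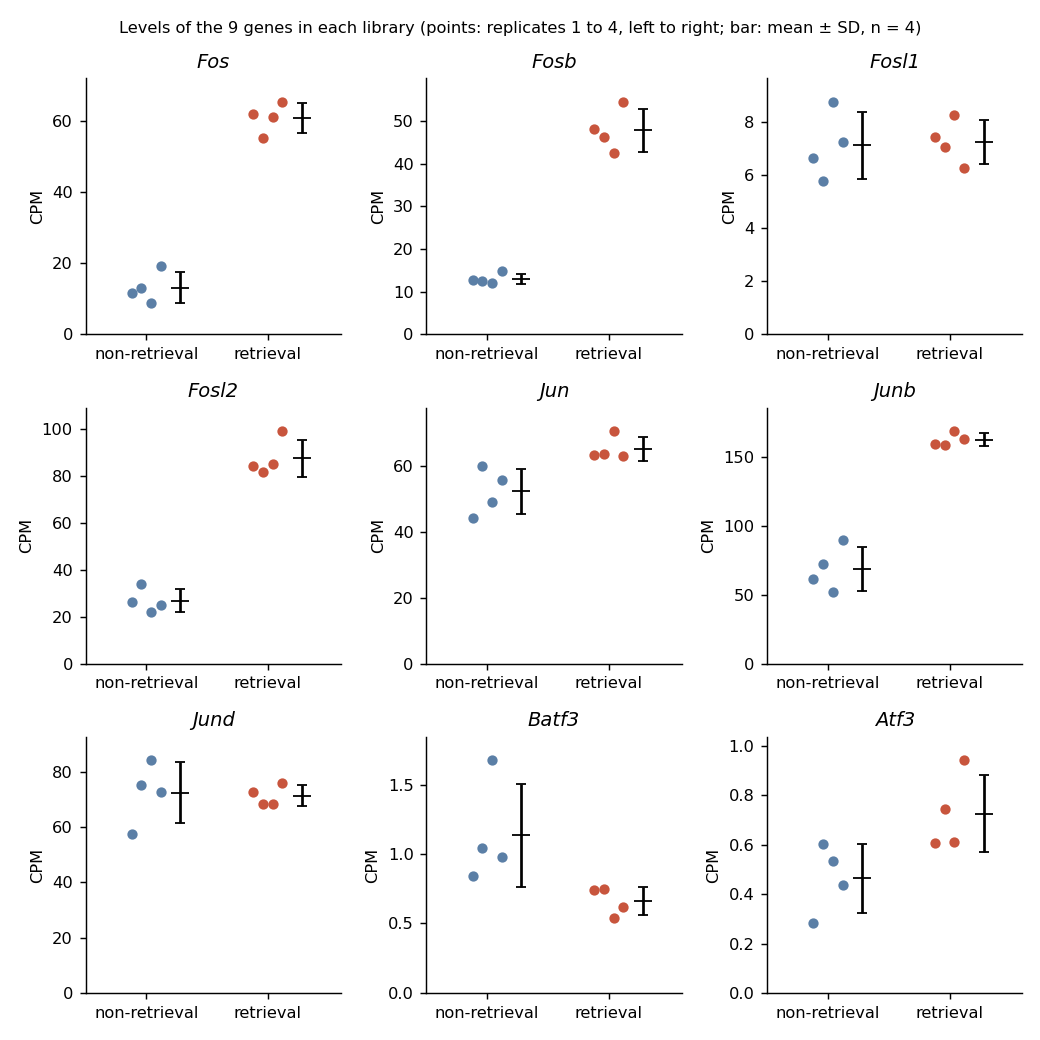
CPM of each of the 9 genes (panels, axes from 0) in 4 non-retrieval and 4 retrieval libraries (points), with mean and SD. Fos, Fosb, Fosl2 and Junb are widely separated between groups, Jun is separated by a narrow margin, and Fosl1 and Jund overlap.

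The non-retrieval libraries were not ordered alike for all genes. Replicate 4 was the highest for Fos, Fosb and Junb, and replicate 2 for Fosl2 and Jun. Replicate 3 was the lowest for Fos, Fosb, Fosl2 and Junb and the highest for Fosl1, Jund and Batf3. With any 1 library left out, the log2 fold change was 2.05 to 2.45 for Fos, 1.81 to 1.94 for Fosb, 1.62 to 1.84 for Fosl2 and 1.13 to 1.40 for Junb. The calls of these 4 genes held each time. Without retrieval replicate 2, the library with the high striatal markers, the values were 2.25, 1.89, 1.74 and 1.25.

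With the mean level of the oligodendrocyte markers as a covariate, the log2 fold changes were 2.35 (SE 0.22) for Fos, 1.79 (SE 0.14) for Fosb, 1.57 (SE 0.15) for Fosl2 and 1.32 (SE 0.17) for Junb, and all 4 stayed called. Jun kept its value (0.33, SE 0.13) and lost its call. The summed level of these markers did not itself overlap between groups, so this fit cannot fully separate the markers from retrieval. In tissue RNA, a change in the number of cells that express a gene and a change in transcripts per cell cannot be told apart.

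Scaling by gene length allows levels to be compared between genes, here as TPM, which sum to the same total in every library, computed from the counts and the deposited gene lengths. In non-retrieval the order was Jund (156 ± 21.6 TPM, SD, n = 4), Junb (107 ± 25.1), Jun (58.9 ± 7.63), Fos (20.1 ± 6.63), Fosl1 (15.0 ± 2.45), Fosl2 (9.99 ± 1.95), Fosb (7.50 ± 0.664), Batf3 (2.55 ± 0.791) and Atf3 (0.773 ± 0.228). The JUN genes thus lay above all FOS genes. Neighbours whose ranges overlapped were Jund and Junb, Fos and Fosl1, Fosl1 and Fosl2, and Fosl2 and Fosb, although Jund exceeded Junb within each of the 4 libraries.

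In retrieval the order was Junb (255 ± 7.34 TPM, SD, n = 4), Jund (155 ± 7.36), Fos (93.5 ± 5.89), Jun (74.0 ± 4.43), Fosl2 (32.7 ± 2.22), Fosb (27.7 ± 2.60), Fosl1 (15.4 ± 1.98), Batf3 (1.50 ± 0.257) and Atf3 (1.22 ± 0.234). Only Batf3 and Atf3 overlapped among neighbours. Junb took the place of Jund as the most abundant, with a Junb to Jund ratio of 0.445 to 0.889 in the non-retrieval libraries and 1.55 to 1.79 in the retrieval libraries. Fos passed Jun, from a ratio of 0.239 to 0.464 to a ratio of 1.17 to 1.41. By its mean TPM, Fosl1 stood above Fosl2 and Fosb in non-retrieval and below both in retrieval, while its own groups overlapped. These orders rest on the deposited gene lengths (1707 bases for Fosl1, 6243 for Fosb, 9680 for Fosl2, 2301 for Junb and 1668 for Jund). In CPM the non-retrieval means were 7.12 for Fosl1, 13.0 for Fosb and 26.9 for Fosl2. Jund (72.5) was above Junb (68.5) by mean CPM in non-retrieval and in replicates 2 and 3. Junb was the higher in CPM in non-retrieval replicates 1 (61.0 against 57.6) and 4 (89.4 against 72.9). By mean CPM in retrieval, Fosl2 (87.6) stood above Jund (71.4). Fos stayed below Jun by mean CPM in retrieval, at 60.8 and 65.2. Whether the expressed transcripts have the deposited lengths was not tested.

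The summed level of the 9 genes was 378 ± 41.3 TPM in non-retrieval and 656 ± 16.4 TPM in retrieval (SD, n = 4). The FOS family sum was 52.5 ± 6.68 and 169 ± 8.63 TPM, a ratio of 3.22, and the JUN family sum was 322 ± 36.4 and 484 ± 10.8 TPM, a ratio of 1.50. FOS transcripts accordingly made up 13.9 ± 1.22% of the sum in non-retrieval and 25.8 ± 0.882% in retrieval. The libraries did not overlap, at 12.7% to 15.3% and 24.9% to 26.9%. JUN transcripts stayed the majority, at 85.2 ± 1.03% and 73.8 ± 0.892%.

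Within the sum, the share of Jund went from 41.4 ± 5.38% to 23.6 ± 0.892% while its level overlapped between groups, and that of Junb from 28.2 ± 4.62% to 38.9 ± 1.04% (SD, n = 4). Fos went from 5.26 ± 1.36% to 14.2 ± 0.606%, and Fosb and Fosl2 from 2.00 ± 0.201% and 2.66 ± 0.524% to 4.23 ± 0.394% and 4.98 ± 0.322%. These are shares of transcripts, and amounts of protein or of dimers were not measured.

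**Figure D3:**
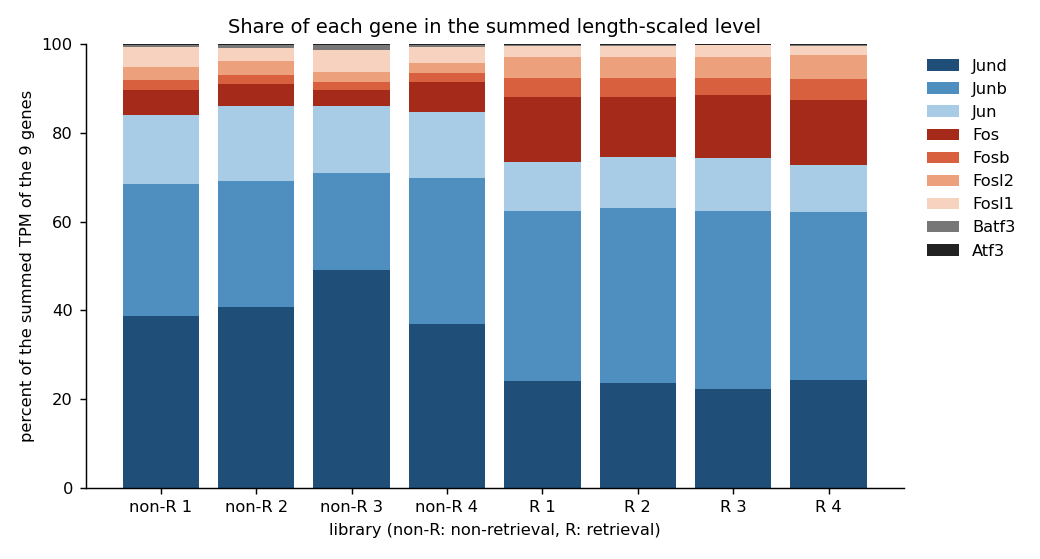
Percent of the summed TPM of the 9 genes taken by each gene (colours; JUN genes blue, FOS genes red, Batf3 and Atf3 grey and black) in each of the 8 libraries. The FOS genes take 12.7% to 15.3% in non-retrieval and 24.9% to 26.9% in retrieval, and Junb replaces Jund as the largest share.

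The genes whose profile was most like each of the 4 widely separated genes were found by the root mean square difference of log2 CPM, centred on each gene's mean, over the 8 libraries. The search covered 14528 genes with a mean of at least 1 CPM, and a value of 0 would be an identical profile. For Fos the nearest was Arc, the activity-regulated synaptic gene (0.22), followed by the zinc-finger factors Egr4 (0.29) and Egr1 (0.30). Fosb was nearest to Egr4 (0.11), Egr1 (0.12) and the nuclear receptor Nr4a2 (0.18). Fosl2 was nearest to Nr4a2 (0.10), its relative Nr4a3 (0.13) and the salt-inducible kinase Sik1 (0.14).

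For Junb the nearest genes were Arl4d, a small GTPase of the ARF family (0.11), the nuclear receptor Nr4a1 (0.17) and the matricellular gene Cyr61 (0.20). Within non-retrieval, Fos ran from -1.67 to -0.54 and Arc from -1.67 to -0.44 around their own means on the log2 scale. The profiles were centred over both groups, so the contrast that chose the 4 genes also enters this measure. Non-retrieval replicate 4 was the highest of its group for Fos and Arc, and also for Junb, Arl4d, Nr4a1 and Cyr61.

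**Figure D4:**
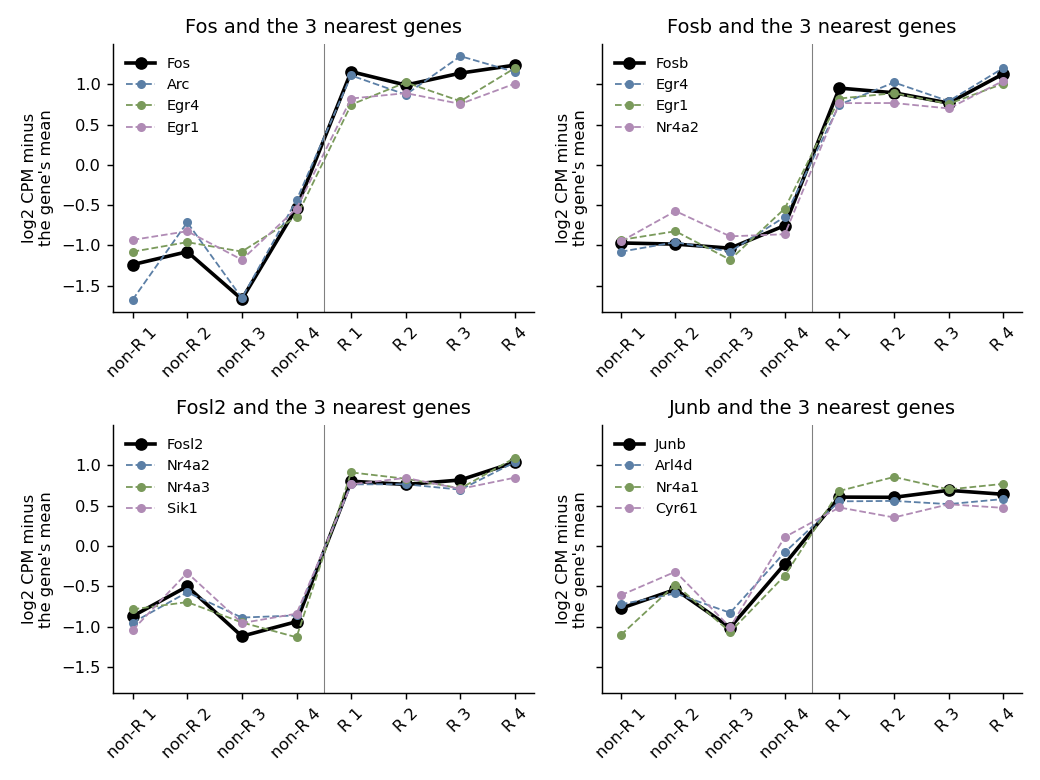
Log2 CPM minus each gene's own mean (vertical axis) in the 8 libraries (horizontal axis; non-R, non-retrieval; R, retrieval) for Fos, Fosb, Fosl2 and Junb (black) and the 3 genes nearest to each (dashed). Non-retrieval replicate 4 is the highest of its group for Fos, Arc, Junb and Arl4d, and replicate 2 for Fosl2 and Nr4a2.

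Other bZIP proteins compete for or share AP-1 partners. Among 21 tested genes of this kind 3 rose and none fell, leaving 18 without a call (median log2 fold change 0.09), where 3.67% of all tested genes were called higher and 0.902% lower. At an unadjusted p under 0.05 the numbers were 5 higher and 0 lower, against 11.2% and 7.27% of all tested genes. This list, like the kinase and target lists below, was chosen with earlier results of these data known. Counts of all these lists are small and are given as description. Of the 21 partner genes DESeq2 called 3 and limma-voom 5, none of them lower. Both tools also called more genes than edgeR over the 16745 tested. Genes called higher numbered 615 with edgeR, 818 with DESeq2 and 1110 with limma-voom. The small MAF factors lack a transactivation domain and pair with several bZIP proteins. Maff was measured at 1.13, 1.49, 1.50 and 1.21 CPM in non-retrieval and 3.87, 2.09, 3.94 and 2.54 CPM in retrieval. It rose by a log2 fold change of 1.23 (SE 0.23; edgeR adjusted p = 0.00516), with all 4 retrieval libraries above all non-retrieval libraries, and its call held with any 1 library left out.

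Mafg, another small MAF factor, had means of 97.7 ± 6.25 and 116 ± 6.97 CPM (SD, n = 4) in the non-retrieval and retrieval groups. It rose by 0.25 on the log2 scale (SE 0.07, adjusted p = 0.0401 in edgeR). Nfe2l2 encodes NRF2, the regulator of antioxidant genes that binds DNA with small MAF partners. Its means were 8.51 ± 0.671 and 11.3 ± 0.568 CPM (SD, n = 4), a rise of 0.41 on the log2 scale (SE 0.09, adjusted p = 0.0208 in edgeR). The retrieval libraries lay above the non-retrieval libraries for both. With the oligodendrocyte covariate neither was called. Nfe2l2 kept its size with a larger error (0.44, SE 0.15, adjusted p = 0.252 in edgeR), while the value of Mafg was smaller (0.14, SE 0.10, adjusted p = 0.583 in edgeR). Leaving out non-retrieval replicate 1, 2 or 4, or replicate 2, 3 or 4 of retrieval, ended the call of Mafg (adjusted p 0.0828 to 0.136 in edgeR). For Nfe2l2 this held for non-retrieval replicates 2, 3 and 4 and for replicate 4 of retrieval (adjusted p 0.0584 to 0.0675 in edgeR).

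Kinases that act on FOS and JUN proteins or their genes (ERK, JNK, p38 and RSK families), JNK scaffolds and factors of JUN turnover made up a list of 28 tested genes. EdgeR called 0 of the 28, against 3.67% higher and 0.902% lower among all tested genes, a background at which a list of this size holds few calls. At an unadjusted p under 0.05 there were 2 higher and 2 lower, against 11.2% and 7.27% of all tested genes. The other tools gave 0 calls (DESeq2) and 3 calls (limma-voom), 2 higher and 1 lower (median log2 fold change -0.01). Over all 16745 tested genes limma-voom called 1110 higher and 509 lower, and DESeq2 818 higher and 232 lower. The smallest p belonged to Mapk3, which encodes the kinase ERK1, with means of 135 ± 11.5 and 157 ± 13.8 CPM (SD, n = 4). Its groups overlapped, and its log2 difference was 0.21 (SE 0.08, adjusted p = 0.142 in edgeR). Mapk3 was called higher by limma-voom (0.27, adjusted p = 0.0162) and, in edgeR, without retrieval replicate 1 (0.27, adjusted p = 0.0232). Next was Cops5, which encodes the c-Jun-binding protein JAB1, with means of 64.2 ± 2.17 and 57.1 ± 3.04 CPM (SD, n = 4). All its retrieval libraries lay below, with a log2 difference of -0.17 (SE 0.06, adjusted p = 0.147 in edgeR), and limma-voom called it lower (-0.19, adjusted p = 0.0389). Kinase activity is set largely by phosphorylation, which these data do not measure.

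Genes described as AP-1 targets in brain or other cells, among them neuropeptide, protease and growth genes, formed the last list. Among 28 tested 2 rose and none fell, leaving 26 without a call (median log2 fold change 0.05), beside 3.67% higher and 0.902% lower among all tested genes. At an unadjusted p under 0.05 the numbers were 3 higher and 1 lower, beside 11.2% and 7.27% of all tested genes. DESeq2 called 2 and limma-voom 3, none of them lower, where over all 16745 tested genes DESeq2 called 1050 and limma-voom 1619. Vim, the intermediate filament vimentin, had means of 23.4 ± 1.22 and 29.8 ± 3.20 CPM (SD, n = 4) and rose by 0.35 on the log2 scale (SE 0.09, adjusted p = 0.0284 in edgeR). Cd44, the hyaluronan receptor, had means of 1.56 ± 0.174 and 2.54 ± 0.119 CPM (SD, n = 4) and rose by 0.70 on the log2 scale (SE 0.18, adjusted p = 0.0322 in edgeR). The groups did not overlap for either gene.

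With the oligodendrocyte covariate neither was called. Cd44 kept its size with a larger error (0.73, SE 0.29, adjusted p = 0.322 in edgeR), while the value of Vim was smaller (0.17, SE 0.13, adjusted p = 0.617 in edgeR). Leaving out non-retrieval replicate 1, 2 or 3, or replicate 2 or 4 of retrieval, ended the call of Vim (adjusted p 0.0533 to 0.0952 in edgeR). Cd44 lost its call without any 1 library except retrieval replicate 1 (edgeR adjusted p 0.0557 to 0.101). Of 8 astrocyte and 6 endothelial markers none was called by edgeR, with median log2 fold changes of 0.10 and -0.02. Single markers differed more, such as Gfap (0.38, adjusted p = 0.147 in edgeR). For Flt1 all retrieval libraries lay above (0.20, adjusted p = 0.0991 in edgeR). Among 6 GABAergic markers 1, Pvalb, was called lower (-0.41, adjusted p = 0.0355 in edgeR), although its groups overlapped. The shares over all tested genes were 3.67% called higher, 0.902% called lower and 6.59% with all retrieval libraries above. The oligodendrocyte covariate cannot be fully separated from retrieval. No other measure of cell composition was tested for Vim and Cd44.

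**Figure D5:**
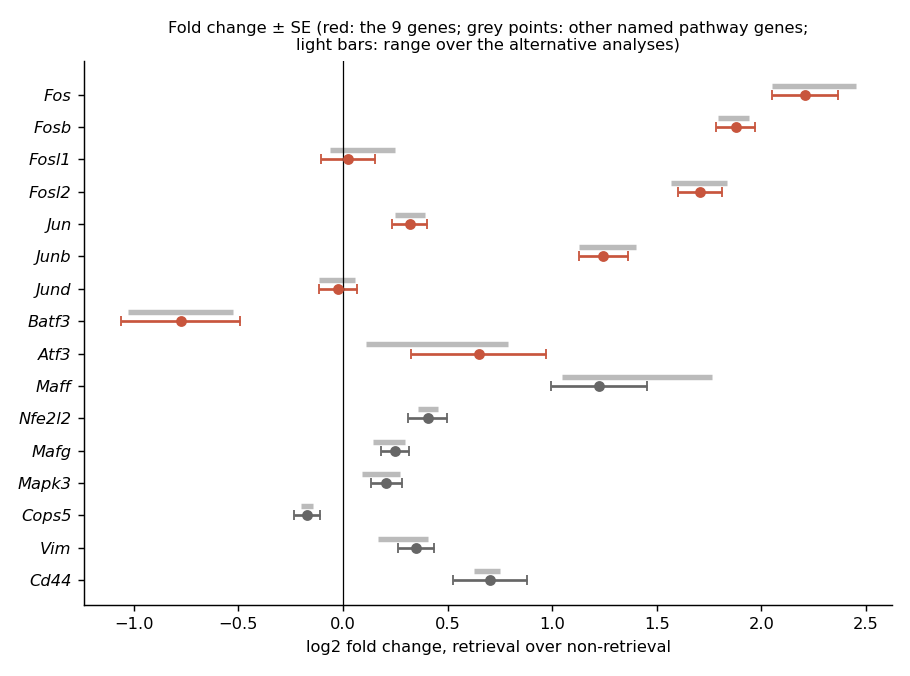
Log2 fold change of retrieval over non-retrieval with its SE (derived from the F statistic) for the 9 genes (red) and the named genes of the 3 other lists (grey). Light bars give the lowest and highest value over the alternative analyses, which for Fosl1 and Jund lie on both sides of 0.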

How the data were processed

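RNA-seq of the mPFC was analysed in 8 libraries (4 retrieval, 4 non-retrieval). The table deposited by the authors holds whole-number read counts for each gene, without normalization. HISAT2 2.0.5, featureCounts 1.5.0-p3 and GRCm38 are named per the submitters' processing notes. For the annotation release and strand setting, nothing is given in the sources used here, and reads of overlapping genes cannot be told apart. Totals ran from 25013503 to 29547978 counts per library, so genes with few counts, such as Batf3 and Atf3, are measured least precisely. Columns were matched to samples by title.

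Genes were filtered with filterByExpr of edgeR 4.0.16 (R 4.3.3), scaled with TMM and tested by the quasi-likelihood F test of edgeR. P-values were adjusted by the Benjamini-Hochberg method over all 16745 tested genes, and calls were made at an adjusted p under 0.05. The fit was tested on simulated data. CPM use the TMM factors, TPM use the deposited gene lengths, and log2 CPM a prior count of 2. Each SE was derived from the test, as the absolute log2 fold change divided by the square root of its F statistic.

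The members and the lists of partner, kinase, target and marker genes were chosen with earlier results of these data known. Named genes are the 9 members, each list's called genes up to 6 (otherwise the 2 with the smallest p), and for Fos, Fosb, Fosl2 and Junb the 3 nearest profiles. Alternatives were other scaling, filters, threshold and tests (DESeq2 1.42.0, limma 3.58.1), the replicate number as a block, the oligodendrocyte covariate and each library left out. A further alternative, correcting for transcript length and GC content by an offset, was chosen after seeing the data.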

Additional observations from a re-analysis of the deposited data

Results flagged for a closer look

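Jun in retrieval replicate 3 stood apart from its group. It was measured at 70.6 CPM there and at 63.1 to 63.7 CPM in the other 3 retrieval libraries. The gap was 0.908 of the range of the group, above Dixon's 95% critical value for 4 samples. It was the only such value among 24 groups of 4 tested, and about 1 in 20 passes by chance. Without retrieval replicate 3 the log2 fold change of Jun was 0.28, and Jun lost its call.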

How the results depend on the processing

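Fos, Fosb, Fosl2 and Junb kept their direction and call under all 19 alternatives. The 9 genes held 5 calls, and 4 under each alternative that ended that of Jun (upper quartile factors, adjusted p under 0.01, the oligodendrocyte covariate and 6 of the 8 left-out libraries). Neither Fosl1 nor Jund was called, and both changed sign. The log2 fold change of Fosl1 was -0.0015 with upper quartile factors, -0.0552 with limma-voom, and -0.0596 to 0.139 with 1 library left out, negative without replicate 1 (-0.0043) or 2 of non-retrieval or replicate 3 of retrieval (-0.0391). That of Jund was -0.114 to 0.0580 with 1 library left out, positive without replicate 3 of either group (0.0580 and 0.00084). The 766 genes called in all became 1619 with limma-voom, 1791 with the replicate block, 238 at an adjusted p under 0.01, 120 with the oligodendrocyte covariate and 1297 with the length and GC offset, and 330 to 1360 with 1 library left out. Higher genes were 80.3% of the calls, 59.8% with the length and GC offset, 68.6% with limma-voom, 71.1% with the block, 90.3% at an adjusted p under 0.01 and 91.7% with the covariate. Partner calls (3) became 5 with limma-voom, 1 at an adjusted p under 0.01, 1 with the covariate and 1 to 3 with 1 library left out. Kinase and turnover calls (0) became 3 with limma-voom, 3 with the block, 3 with the offset and 0 to 2 with 1 library left out. Target calls (2 higher) became 4 with the block (3 higher, 1 lower), 0 at an adjusted p under 0.01, 0 with the covariate and 0 to 3 with 1 library left out. The FOS family share on raw counts, not per length, was 23.6% in non-retrieval and 40.4% in retrieval. The share per length was 13.5% to 14.3% and 25.4% to 26.1% with 1 library left out. The cause of these shifts was not tested, except that a stricter threshold lowers counts by construction. The highest counts with 1 library left out, over all genes and for kinases and targets, came without retrieval replicate 1. Replicate numbers were not taken as pairs: same-numbered libraries deviated together with correlations of 0.221, 0.085, 0.0268 and 0.0996, and every library correlated best with its own number, a hint from the data and not the design. With that block the members' calls stayed at 5, and Mapk3 was called higher (0.21, adjusted p = 0.0114).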
